A study of Rattus norvegicus with 2 samples.

Results

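The genes described here are 10 members of the rat S100 family of calcium-binding proteins: S100a1, S100a3, S100a4, S100a6, S100a8, S100a9, S100a10, S100a11, S100a13 and S100b. They were chosen by name, by matching the RefSeq accessions of the array's probes to current rat symbols, and they had 11 of the 30367 probes on the array. In all, the probes stood for 26912 genes or unmatched transcripts. RNA came from bone marrow-derived stromal cells, the adherent supporting cells that marrow gives rise to on culture plastic. The control group was wild type Sprague-Dawley rats, and the transgenic group was rats of Sprague-Dawley origin that carry 2 added human genes, one for angiotensinogen and one for renin. In both groups 150000 cells were seeded in each well of a 6-well plate and harvested before confluency. Each group had 1 array, so the differences below carry no p-value and could not be checked against replicates. For the number of animals, their age and what drives the transgenes, the sources used here give nothing. The human transcripts themselves were not measured.

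S100 proteins are small proteins with a pair of EF-hands, the helix-loop-helix motif that binds calcium, and most act as dimers. Inside the cell they bind annexins, cytoskeletal proteins and calcium pumps, in many but not all cases in response to calcium. Some are released, and then act on receptors such as RAGE and the Toll-like receptor TLR4. In marrow S100a8 and S100a9 are known as abundant products of neutrophils and monocytes, while S100a4 and S100a6 are typical of fibroblasts and other mesenchymal cells. Most genes of the family lie side by side in one cluster of the genome, and S100b lies apart.

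More than 50% of a probe's spots had to be well above background for it to count as such, which held for 60.2% of probes in control and 60.8% in transgenic. Signals are the scanner's processed intensities in units that were not scaled between arrays. Spots of a probe are technical repeats on 1 array, with a median SD of 0.08 log2 on each array. Even small shifts can therefore leave the spots of the arrays without overlap. The share of all genes without such overlap was not computed. A difference is transgenic minus control on the log2 scale, after subtracting each array's 75th percentile, which was 905 units in control and 1080 in transgenic. The error given with it is the scanner software's own error for both arrays together, a technical error that says nothing about animals or cultures. Differences are relative to the bulk of genes. Setting the arrays equal on 8 detected spike-in probes moved every difference up by 1.085 log2, and single spike-in probes gave shifts from 0.40 to 1.26. Among 12 stromal markers, 10 were above background on both arrays, including Vim, Col1a1, Thy1 and Cd44. Lepr was above background on neither array and Vcam1 on the transgenic array only.

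Of the 10 S100 genes, 8 were above background on both arrays and 2 on neither. On the transgenic array S100a10, S100a1 and S100a13 were lower by 2-fold or more, S100b was higher by 2-fold or more, and S100a3, S100a4, S100a6 and S100a11 lay within 2-fold. These 4 genes past 2-fold, out of 8, stand beside 20.8% of all 15501 genes above background on both arrays. In the single directions, 10.5% of all genes were at least 2-fold higher and 10.3% lower. The median difference of the 8 S100 genes was -0.75 log2, and that of all genes was -0.07. With spike-in scaling the S100 median became 0.34, with 2 genes higher and 1 lower, against a median of 1.01 for all genes, of which 50.8% were then higher and 2.21% lower. In RNA from whole cultures, fewer cells of a type and less RNA per cell cannot be told apart.

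**Figure D1:**
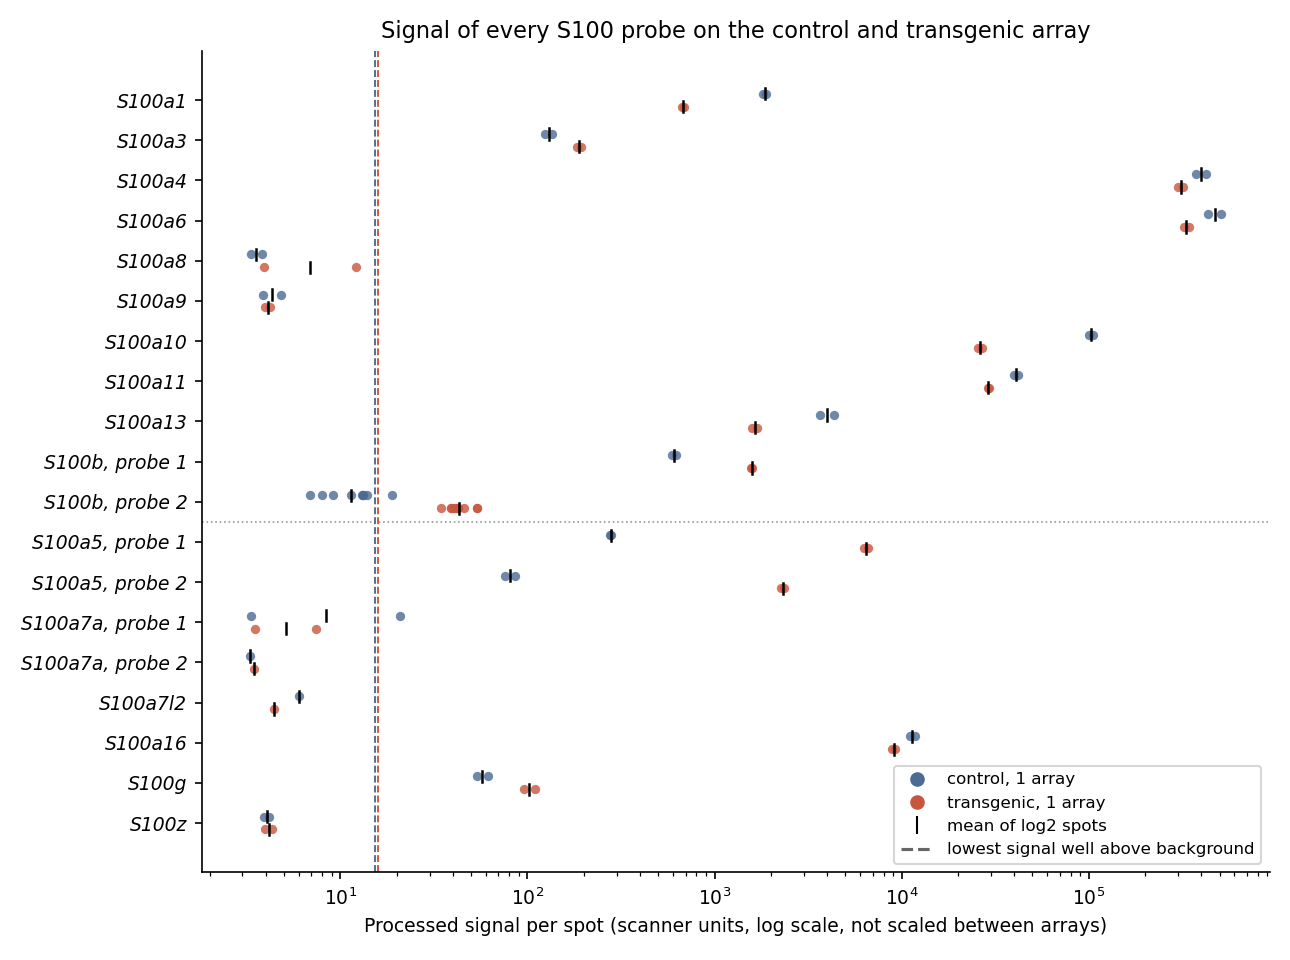
Processed signal of each spot (horizontal log axis, scanner units) for all 19 probes of 16 S100 genes, with the control array in blue, the transgenic array in red and a black tick at the mean of the log2 spots; spots flagged as outliers are left out. The 10 genes described lie above the dotted line, S100a8 and S100a9 lie left of the dashed lines that mark the lowest signal well above background, and S100a10 has spots of 100219 and 105859 units in control against 25519 and 26723 in transgenic.

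S100a10, also called p11, pairs with annexin A2 at the inner face of the plasma membrane and, at the cell surface, binds tissue plasminogen activator and plasminogen. Its spots read 100219 and 105859 units on the control array and 25519 and 26723 on the transgenic array. The spots of the arrays did not overlap. The difference was -2.23 ± 0.20 log2, or 4.70-fold lower in the transgenic array, and spots at the same slide position gave -2.23 and -2.24. Of the 8 measured genes it had the largest difference with 75th percentile scaling. With spike-in scaling it was still lower, at -1.15, but S100b (2.20) and S100a3 (1.36) then differed by more. Anxa2, its annexin partner, had signals of 148300 and 85890 units and was 2.06-fold lower, a difference of -1.04 that became 0.04 with spike-in scaling. Plat, the tissue plasminogen activator, was 2.20-fold higher, Plgrkt, a membrane receptor of plasminogen, was 2.06-fold lower, and Plg differed by -0.29. Plau was above background on the control array only, with a bound of at least 1.86-fold lower, and Plaur differed by 0.54. The RefSeq gene table holds 1 pseudogene named after S100a10. The letters of the probes were not used here, so signal from such copies cannot be told apart.

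S100a1 and S100a13 lie next to each other in the annotation, and both were about 3-fold lower in the transgenic array. S100a1, best known from striated muscle where it acts on the ryanodine receptor and the SERCA calcium pump, had spots of 1818 and 1885 units in control and 667 and 687 in transgenic. This was a difference of -1.71 ± 0.20 log2, or 3.26-fold lower. S100a13, which takes part in the release of FGF1 and interleukin-1 alpha by a route outside the secretory pathway, had spots of 3666 and 4375 units in control and 1578 and 1694 in transgenic. It was 2.92-fold lower, a difference of -1.55 ± 0.20. For both genes every control spot was above every transgenic spot. The differences of the 2 genes were closer to each other (0.16 log2) than their combined error (0.29). With spike-in scaling they became -0.62 and -0.46, so that neither passed 2-fold.

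The partners of these 2 proteins went several ways. Ryr2 and Atp2a2, a ryanodine receptor and the SERCA2 pump, had 4.48 and 2.73 times the control level on their brighter probes. The other probe of Ryr2 differed by -0.20 log2 and that of Atp2a2 by 1.76, and their signals are not reported here. The pump's inhibitor Pln had 59552 units in control and 958 in transgenic. Fgf1 differed by -0.51 log2. On its brighter probe Il1a was above background in transgenic only, with a bound of at least 1061-fold higher than in control. The other probe of Il1a had a smaller difference, 7.19 log2 against 11.50 for the brighter one, and its signals are not reported here. Syt1, which is released together with S100A13 and FGF1, was above background on neither array. Of 8 striated muscle markers, 7 were above background on both arrays. At least 2-fold higher was 1 and lower 3, beside 10.5% and 10.3% of all genes. Actc1, the cardiac actin, had 3153 units in control and 18019 in transgenic, while Myh1, Myh8 and Tnnt1 were lower, with 952, 2113 and 535 units in control against 21.8, 53.9 and 68.0 in transgenic. Summed over the list, the signal was 7283 units in control and 18792 in transgenic, and without Actc1 it was 4130 and 773. Their part in the S100a1 difference was not tested.

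S100a4, S100a6 and S100a11 had strong signals on both arrays and lay within 2-fold. S100a4, known as fibroblast-specific protein and as a partner of non-muscle myosin IIA, had spots of 371918 and 422920 units in control and 300118 and 319846 in transgenic, a difference of -0.61 ± 0.20 log2. S100a6, or calcyclin, which binds the ubiquitin ligase adaptor Cacybp, had means of 471184 units in control and 332673 in transgenic and a difference of -0.76 ± 0.20, or -0.69 and -0.82 for spots at the same slide position. S100a11, or calgizzarin, which binds annexin A1, had spots of 39705 and 41708 units in control and 28967 and 29166 in transgenic, a difference of -0.74 ± 0.20. In each of the 3 genes the unscaled control spots were above the unscaled transgenic spots. Their signs depended on the scaling, since with spike-in probes the values became 0.47 for S100a4, 0.33 for S100a6 and 0.35 for S100a11. No spot on either array was saturated. S100a11 has 7 entries of like name in the RefSeq gene table, 5 of them pseudogenes, so its value is uncertain.

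Partners of these genes lay near 2-fold or within it, apart from Anxa6. Myh9, the heavy chain of non-muscle myosin IIA, differed by -1.03 log2 and Myh10, that of myosin IIB, by -0.15. Cacybp and Sugt1, partners of S100a6, differed by -0.45 and -0.46, and Anxa1 by -0.57. Anxa6 was 3.92-fold lower, while Anxa11, also bound by S100a6, differed by 0.39. With spike-in scaling Myh9 moved to 0.05 and Anxa6 to -0.89.

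S100a3, a family member known from the hair cuticle, had low signals of 125 and 135 units in control and 183 and 192 in transgenic. Its difference was 0.28 ± 0.21 log2, near its technical error, and reached 1.36 with spike-in scaling. The spots of the arrays did not overlap.

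Ordered by their differences, the 8 genes fell into steps. S100a10 was lower than S100a1 by 0.53 log2, more than the combined scanner error of 0.29. S100a1 and S100a13 did not differ beyond that error. A gap of 0.79 separated S100a13 from S100a6, and S100a6, S100a11 and S100a4 followed with gaps of 0.02 and 0.13, below the error. S100a3 lay 0.89 above S100a4, and S100b 0.84 above S100a3. The order of S100a6 and S100a11 turned under quantile scaling, normexp and the authors' processed values, where S100a11 lay 0.30, 0.31 and 0.32 below S100a6. In the same settings S100a4 lay 0.46, 0.38 and 0.41 above S100a11. These gaps were all over the error of 0.29, so the shared step of S100a6, S100a11 and S100a4 depended on the setting.

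**Figure D2:**
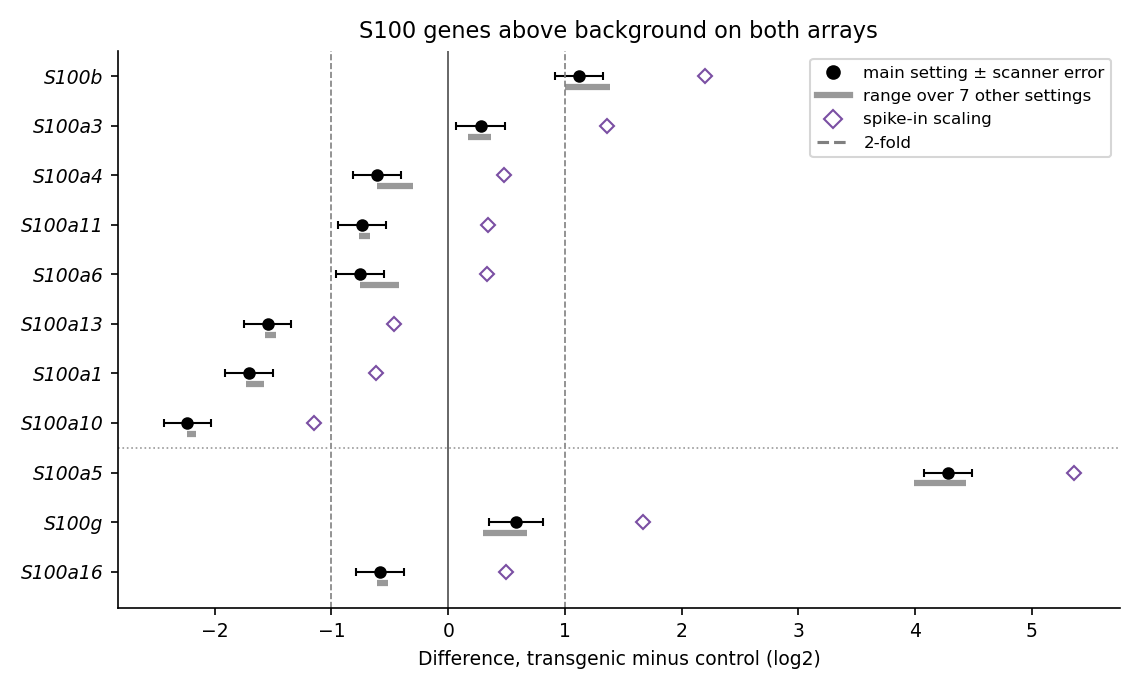
Difference between the arrays (horizontal axis, log2, transgenic minus control) for the 11 S100 genes above background on both arrays, with the scanner error as a bar, a grey band for the range over 7 other settings and a diamond for spike-in scaling. The genes described lie above the dotted line, from S100b at 1.12 to S100a10 at -2.23, and below it S100a5 lies at 4.28.

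S100b, known from glia, fat cells and cartilage, is the only one of the 10 genes outside chromosome 2 and had 2 probes. The brighter probe had spots of 594 and 623 units in control and 1565 and 1588 in transgenic, a difference of 1.12 ± 0.20 log2, or 2.17-fold higher. The other probe had 10 spots. On the control array 9 spots were used, from 6.86 to 18.9 units, and 0 of them were well above background. On the transgenic array all 10 were, from 34.4 to 53.6 units, which gives a bound of at least 2.35-fold higher. In the authors' processed values, however, this probe differed by only 0.40 log2, within 2-fold, and the brighter probe by 1.01. The spots of the arrays did not overlap on either probe, and both probes pointed to a higher signal in the transgenic array. This direction held with spike-in scaling, at 2.20 for the brighter probe. Among the neighbours of S100b on chromosome 20, Dip2a differed by 0.175 log2 and Prmt2 by 0.54.

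Markers of the cells that S100b is known from were measured beside it. Of 10 Schwann and glial markers, 3 were above background on both arrays. At least 2-fold higher were 0 and lower 1, beside 10.5% and 10.3% of all genes. A further 2 were above background in transgenic only and 1 in control only. Their summed signal was 3807 units in control and 848 in transgenic, of which Ncam1, the lower gene, had 3430 and 510. Sox10 and Egr2, also above background on both arrays, differed by -0.19 and -0.65 log2. Erbb3 and Ngfr were among those above background on neither array. Chondrocyte markers summed to 5372 and 1476 units, with 2 of 3 measured genes lower and 0 higher, beside the same shares of all genes. Of the 7 markers 3 could not be matched to a probe. Among 6 adipocyte markers only Pparg was above background on both arrays, at -2.76 log2, and Cfd was so on the control array only. The list summed to 902 and 177 units, of which Pparg had 837 and 148. The part of these cells in the S100b difference was not tested.

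S100a8 and S100a9, the calgranulins that together form calprotectin, were above background on neither array, like 36.0% of all genes. S100a8 had spots of 3.34 and 3.80 units in control and 3.90 and 12.1 in transgenic, and S100a9 had 3.85 and 4.84 in control and 3.98 and 4.21 in transgenic. The lowest probe signal well above background was 15.3 units in control and 15.9 in transgenic, so a level below this could not be measured and no fold is given. Of 9 granulocyte markers on the array, 8 were above background on neither array, among them Elane, Prtn3, Ctsg, Ltf, Mmp8 and Csf3r. The remaining one, the antimicrobial peptide Camp, had 49.8 units in control and 2441 in transgenic. Macrophage markers were at least 2-fold lower in 6 of 8 measured genes and higher in 1, beside 10.3% and 10.5% of all genes. Another 3 of these markers were above background in control only. The macrophage list summed to 17522 units in control and 3157 in transgenic. Of these, Lyz2 had 8372 and 66.3 units, and Cd68, the higher gene, had 602 and 2152. Tyrobp and Fcer1g were 46.1-fold and 22.3-fold lower in transgenic. Ptprc, Itgam and Cd163 were above background on neither array.

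Genes known to induce S100a8 and S100a9 in other cells were measured on the same arrays. On the transgenic array 5 of 8 measured inducers were higher by 2-fold or more and 0 were lower, beside 10.5% and 10.3% of all genes. Their median was 1.99 log2, and 2 more genes were above background in transgenic only. The cytokine genes Csf3 and Il6 had the largest differences of the 5, with 9.13 and 4.56 log2, or 559-fold and 23.6-fold. The transcription factors Cebpb and Cebpd were 3.51-fold and 6.87-fold higher and Hif1a 4.48-fold higher. Il1b was at least 15.0-fold higher. Stat3, Rela and Tnf differed by 0.30, 0.52 and -0.45 log2, and Tnf became 0.63 with spike-in scaling. On that scaling 7 of the 8 measured inducers were at least 2-fold higher, beside 50.8% of all genes.

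The other S100 genes on the array were S100a5, S100a7a, S100a7l2, S100a16, S100g and S100z. S100a5, which in the body is best known from olfactory neurons, had the largest difference of the 11 measured S100 genes. Its brighter probe had spots of 277 and 279 units in control and 6287 and 6595 in transgenic, a difference of 4.28 ± 0.21 log2, or 19.4-fold higher. A second probe had 76.2 and 85.9 units in control and 2279 and 2361 in transgenic, or 24.0-fold higher. All spots of both probes were well above background, and the second probe's difference was 4.59 ± 0.22 log2. By comparison, 0.555% of all genes were at least 16-fold higher. S100a16 had means of 11392 and 9054 units and differed by -0.59 log2, or 0.50 with spike-in scaling. S100g, the intestinal calcium carrier calbindin-D9k, had 57.5 and 103 units and differed by 0.58. S100a7a, S100a7l2 and S100z were above background on neither array, and S100a14 was not matched to a probe.

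In the annotation order of chromosome 2 (RefSeq gene table, assembly GRCr8) S100a5 lies directly between S100a4 and S100a6. Along the cluster the protein-coding genes follow as S100a1, S100a13, S100a14, S100a16, S100a3, S100a4, S100a5, S100a6, S100a7a, S100a8 and S100a9, and S100a11 and S100a10 lie next to each other in a separate stretch. Adjacent genes could differ much. S100a4 and S100a6, the neighbours of S100a5 on both sides, were at -0.61 and -0.76 log2, and S100a11 and S100a10 at -0.74 and -2.23. S100a1 and S100a13 were at -1.71 and -1.55. Outside the family, Chtop and Snapin, which precede S100a1, differed by -0.05 and -0.67, and Pglyrp4, a peptidoglycan recognition protein next to S100a9, by 1.82.

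**Figure D3:**
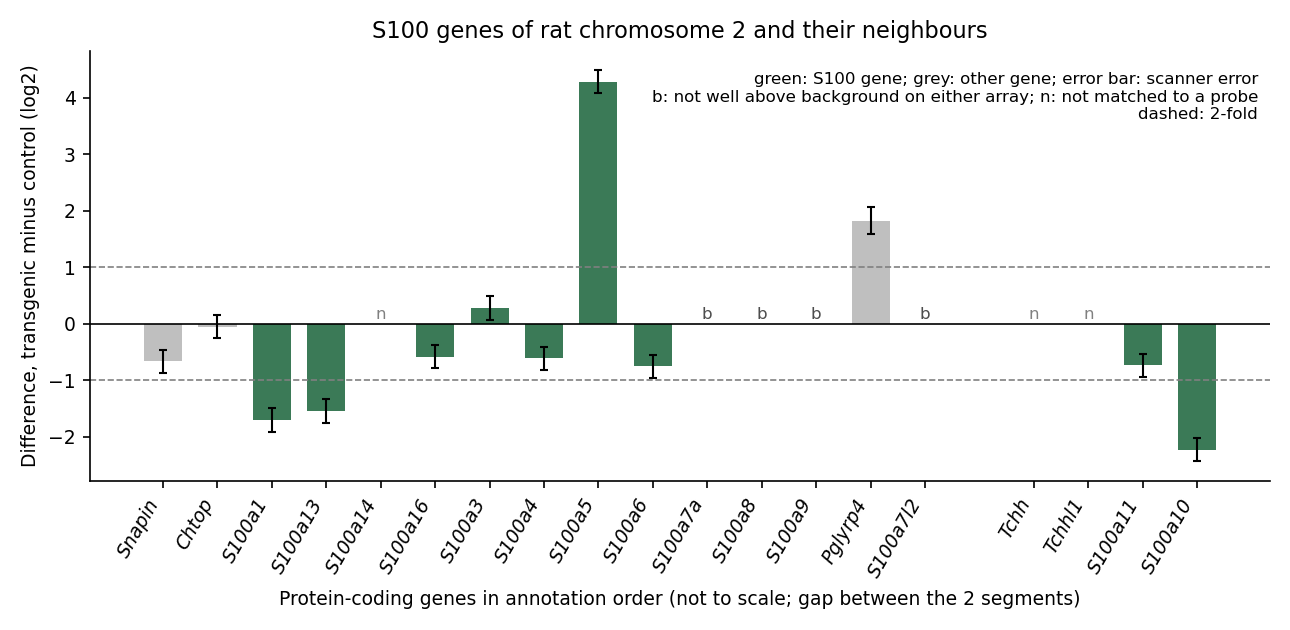
Difference between the arrays (vertical axis, log2, transgenic minus control) for protein-coding genes of chromosome 2 in annotation order, as bars with the scanner error; S100 genes are green and other genes grey. S100a5 stands at 4.28 between S100a4 at -0.61 and S100a6 at -0.76, and the letter b marks genes below the background limit on both arrays.

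The promoters of the 3 adjacent genes are shown because their readings differed most between neighbours, with those of S100a13 and S100b as a lower and a higher member. Each is the 250 bases before the gene's start in RefSeq on assembly GRCr8, 5′ to 3′ on the gene's strand, in lower case with motif matches in capitals. The table gives 1 start a gene, and other transcripts may start elsewhere. Of the 10 genes 7 had an entry; S100a1, S100a8 and S100a10 had none. The array was designed on an older build, and nothing was converted between builds.
S100a4, chr2:178388279-178388528, plus strand: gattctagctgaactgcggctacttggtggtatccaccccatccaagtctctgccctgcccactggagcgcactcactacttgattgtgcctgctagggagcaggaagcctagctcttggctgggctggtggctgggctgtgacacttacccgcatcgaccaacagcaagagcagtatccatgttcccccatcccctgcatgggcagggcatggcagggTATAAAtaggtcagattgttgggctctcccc
S100a5, chr2:178394871-178395120, plus strand: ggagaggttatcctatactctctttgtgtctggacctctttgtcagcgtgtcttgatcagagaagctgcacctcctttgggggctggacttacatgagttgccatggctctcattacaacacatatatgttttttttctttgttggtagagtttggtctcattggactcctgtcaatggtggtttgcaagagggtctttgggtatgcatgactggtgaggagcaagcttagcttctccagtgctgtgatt
S100a6, chr2:178398287-178398536, plus strand: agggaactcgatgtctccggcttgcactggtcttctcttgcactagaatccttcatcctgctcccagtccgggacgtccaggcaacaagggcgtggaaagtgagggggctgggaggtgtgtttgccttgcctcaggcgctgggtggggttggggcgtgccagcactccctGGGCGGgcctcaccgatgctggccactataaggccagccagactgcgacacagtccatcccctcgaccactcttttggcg
S100a13, chr2:178296770-178297019, plus strand: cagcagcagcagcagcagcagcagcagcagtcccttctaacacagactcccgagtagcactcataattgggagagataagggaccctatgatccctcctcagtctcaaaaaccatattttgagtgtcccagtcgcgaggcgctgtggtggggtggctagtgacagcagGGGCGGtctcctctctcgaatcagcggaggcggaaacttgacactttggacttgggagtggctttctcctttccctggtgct
S100b, chr20:12381082-12381331, minus strand: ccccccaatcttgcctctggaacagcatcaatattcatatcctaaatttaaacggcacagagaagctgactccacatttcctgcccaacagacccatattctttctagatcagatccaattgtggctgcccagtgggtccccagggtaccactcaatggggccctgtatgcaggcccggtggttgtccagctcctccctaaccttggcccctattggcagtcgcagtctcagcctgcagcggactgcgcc

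The motifs searched on both strands were the TATA box TATAAA, the GC box GGGCGG, the C/EBP motif TTGCNNAA, the AP-1 motif TGANTCA and the hypoxia response core ACGTG. S100a4 held a TATA box from 31 to 26 bases before its start, S100a6 a GC box from 80 to 75 bases before it, and S100a13 a GC box from 82 to 77 bases before it. The windows of S100a5 and S100b held none of the 5 motifs. Among the other members, S100a9 held a TATA box, S100a3 a GC box and S100a11 a pair of overlapping GC boxes. None of the S100 windows searched held the C/EBP, AP-1 or hypoxia motif. Of all 33469 promoter windows of this length, 12.9% held a TATA box, 30.5% a GC box, 9.22% the C/EBP motif, 6.34% the AP-1 motif and 16.6% the hypoxia core. The GC content was 57.6% for S100a4, 46.0% for S100a5 and 62.4% for S100a6, against a median of 51.2% for all windows. A match is a description of these letters and not of a bound site.

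Receptors of released S100 proteins were measured for 9 of 10 genes on both arrays, with a median of 0.44 log2. At least 2-fold higher were 2 and lower 3, beside 10.5% and 10.3% of all genes. With spike-in scaling 5 were higher and 1 lower, beside 50.8% and 2.21% of all genes. Ager, which encodes RAGE, had low signals of 26.3 and 42.6 units and differed by 0.44. Tlr4 was 2.83-fold lower and its partner Ly96 2.04-fold lower, while Cd14, which presents ligands to this receptor, was 3.44-fold higher and the adaptor Myd88 differed by 0.67. Mcam and Alcam, adhesion molecules that bind S100A8 and S100A9, were 7.05-fold lower and 2.04-fold higher. Bsg and Nptn, of the basigin family, differed by 0.83 and -0.29. Cd36 was above background on the control array only on its brighter probe, with a low signal of 24.8 units there, and was at least 1.85-fold lower. The other probe of Cd36 differed by only -0.19 log2. Tlr4 stayed below 0 with spike-in scaling (-0.42), whereas Ly96 moved to 0.06 and Nptn to 0.80.

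Among intracellular partners, 15 of 19 were above background on both arrays, with a median of -0.51 log2. At least 2-fold higher were 2 and lower 6, beside 10.5% and 10.3% of all genes. Besides those given above, Capza1, the actin capping subunit bound by S100B, was 2.48-fold lower, and Iqgap1, a scaffold also bound by S100B, lay at the limit of 2-fold, with 5533 and 3294 units. Ppp5c, a phosphatase that S100 proteins activate, differed by 0.63. With spike-in scaling the list's median became 0.58, with 4 genes higher and 1 lower, beside 50.8% and 2.21% of all genes. Annexins, the membrane-binding proteins to which many S100 dimers attach, had a median of -0.98 log2 over 8 measured genes. At least 2-fold lower were 4 and higher 0, beside 10.3% and 10.5% of all genes. Anxa1, Anxa2, Anxa6 and Anxa11 are in both lists. Anxa3 was 3.49-fold lower and Anxa4 2.39-fold lower, and Anxa8 was above background on the control array only, at least 88.3-fold lower. Anxa5 and Anxa7 differed by -0.92 and 0.45. Anxa6, Anxa3 and Anxa4 stayed below 0 with spike-in scaling, at -0.89, -0.72 and -0.17, while Anxa5 moved to 0.17, and the annexin median was 0.11. On that scaling 2 of the 8 measured annexins were at least 2-fold higher and 0 lower, beside 50.8% and 2.21% of all genes.

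**Figure D4:**
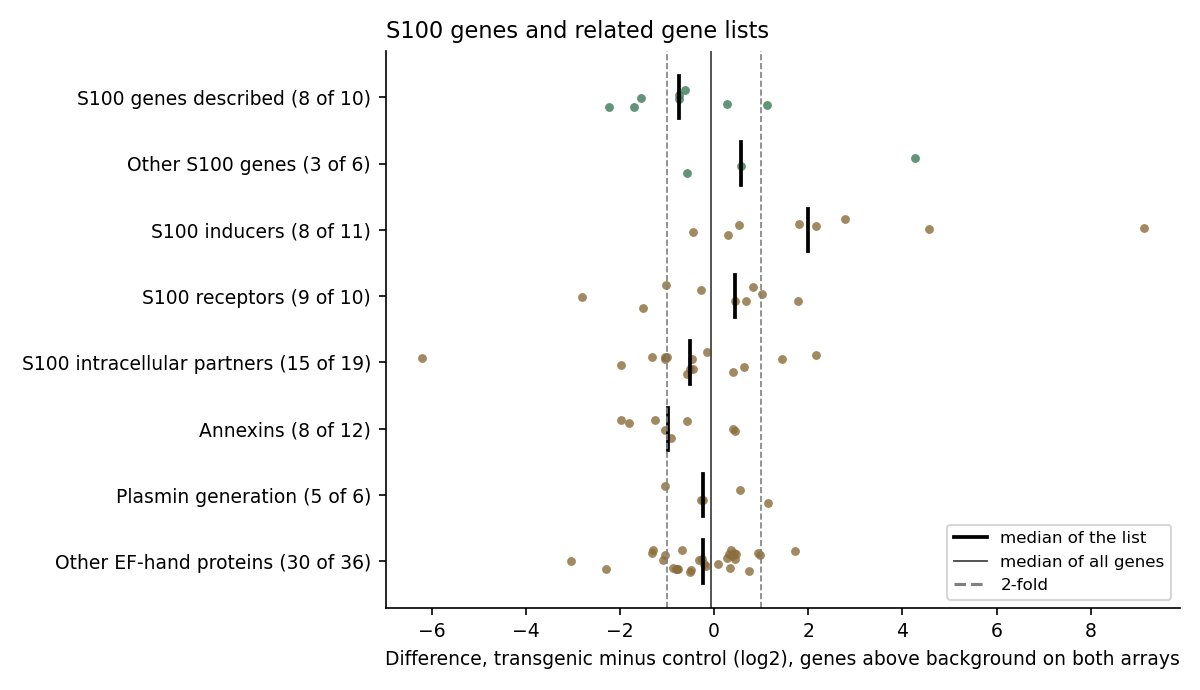
Difference between the arrays (horizontal axis, log2, transgenic minus control) for genes above background on both arrays in each list, 1 point a gene with the list median as a black line; the numbers in brackets are genes measured of genes listed. Over the lists plotted, the medians run from -0.98 for annexins to 1.99 for inducers, and the thin line marks the median of all genes at -0.07.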

How the data were processed

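Total RNA was labelled with Cy3 and hybridised to 1-colour Agilent rat arrays. Per the file headers, the deposited spot intensity values came from Agilent Feature Extraction (version 11.0.1.1) after background subtraction and spatial detrending, with no scaling between arrays; the header names the rn4 build. A log2 table of the authors' own values for 23153 probes was also deposited. How it was normalized and centred is unknown here. All 11 probes of the S100 genes are in it.

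From 58717 non-control spots per array, 446 control and 505 transgenic spots flagged as outliers were removed and log2 signals averaged per probe, then the 75th percentile was subtracted. The brightest probe stood for a gene. Accessions without versions gave 18005 probes 1 symbol, for 15168 genes. A 2-fold size rule took the place of a test. For a probe above background on 1 array only, the bound of the fold is taken against the lowest signal well above background on the other array, or the probe's own signal there if that is higher. Some probes with signals over that lowest signal did not count as above background, such as Vcam1 with 18.4 units in control. The bounds are therefore nominal.

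Text values follow a rule: all S100 genes, their neighbours, and list genes past 2-fold or bright; S100a14, Anxa5, Pparg and other marker genes are named to account for list counts. The 10 genes and all lists were chosen with earlier results of these data known. None of 7 fused S100 genes (such as Flg and Hrnr) matched a probe. Epithelial markers had 3 of 7 genes above background on both arrays, all within 2-fold. Of the others, Krt18 was above background in transgenic only, at least 3.87-fold higher, and 3 were so on neither array. Quantile, loess and normexp alternatives used limma 3.58.1. Counts and medians of lists also cover a few genes whose own values are not reported here. The script was tested on simulated data. The number of arrays limits the precision.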

Additional observations from a re-analysis of the deposited data

How the results depend on the processing

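For the 10 S100 genes, the counts past 2-fold (1 higher, 3 lower) and the median of -0.75 log2 moved by less than 1.5 times or by less than the scanner error of 0.20 under median, quantile and loess scaling, normexp, the authors' processed values, the mean over probes, kept outlier spots and both other background filters. Spike-in scaling gave 2 higher, 1 lower and a median of 0.34. A 1.5-fold rule gave 6 lower, beside 22.5% of all genes. A 3-fold rule gave 0 higher and 2 lower, beside 4.81% and 4.12% of all genes. For the 11 measured S100 genes, 66 of 88 alternative differences moved by less than the scanner error and 22 by more, 11 of these with spike-in scaling. No gene past 2-fold changed sign, and 4 genes within 2-fold did (S100a4, S100a6, S100a11 and S100a16, with spike-in scaling). Normexp was planned on mean spot signals and run on median spot signals with an offset of 50, a choice made after seeing the data; the mean-signal version was not run. S100a8 and S100a9 are limited by background. No paired analysis was possible because each group had 1 array.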

Other observations

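Calcium-binding proteins with EF-hands outside the S100 family were measured on the same arrays. Of 36 such genes 30 were above background on both arrays. The median difference was -0.24 log2, which became 0.85 with spike-in scaling. On the transgenic array 1 was higher by 2-fold or more and 6 lower, beside 10.5% and 10.3% of all genes. The higher gene was Nucb1, a Golgi calcium-binding protein, at 3.28-fold. Smoc1, a matrix protein related to osteonectin, was 8.22-fold lower, and Lcp1, an actin-bundling protein of blood cells, 4.95-fold lower. Actn4, Capn2 and Rcn2 were 2.50-fold, 2.46-fold and 2.06-fold lower, though another probe of Capn2 differed by -0.74 log2, within 2-fold. With spike-in scaling Smoc1 and Lcp1 were still lower by 1.95 and 1.22 on the log2 scale, while Rcn2 came to 0.04. On that scaling 13 genes of the list were at least 2-fold higher and 2 lower, beside 50.8% and 2.21% of all genes. Myl6, Sparc, Calm2 and Calm3 differed by -0.50, -0.16, 0.08 and -0.26 on their main probes. Pvalb was above background only in transgenic, with a bound of at least 1.35-fold higher than in control.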
